A study of Mus musculus with 24 samples.

Results

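The collapsin response mediator proteins (CRMPs) are encoded by 5 genes, Dpysl2, Dpysl3, Dpysl4, Dpysl5 and Crmp1, and the expression of these 5 genes, of 55414 in the count table, was examined in mouse visual cortex. The members were taken by gene symbol. Dpysl2 was selected on its measured values, namely a low level in psilocybin-light mice, so its values in every comparison with that group, and in the interaction, are given as a description without a test. The other 4 members were included as the rest of the gene family. All 5 passed the filter on low counts (30 counts or more in 1 or more libraries), as did 14464 genes in all.

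CRMPs are cytosolic phosphoproteins of neurons that resemble dihydropyrimidinase in structure and assemble as tetramers. They bind tubulin and other cytoskeletal proteins, and kinases such as Cdk5 and Gsk3 release them from microtubules when the guidance cue Semaphorin 3A binds neuropilin and plexin receptors on a growth cone. In the adult cortex they are known for roles in axon and dendrite shape, vesicle transport and ion channel trafficking, and their transcripts are most abundant in developing neurons.

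RNA-seq was performed on the visual cortex of 24 male C57BL/6J mice aged 8 to 10 weeks, in 4 groups of 6 with a separate library for each mouse. Mice were kept on a reversed light cycle and received either 5 mg/kg psilocybin, a tryptamine whose dephosphorylated form activates serotonin receptors, or phosphate-buffered saline by intraperitoneal injection. Vehicle mice that stayed in darkness formed the dark group and vehicle mice exposed to light for 2.5 h the light group. Psilocybin mice that stayed in darkness formed the psilocybin-dark group, and those exposed to light the psilocybin-light group.

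The sources do not give the same light exposure for the libraries. Groups here follow the headings of the study's supplementary count table, where libraries 1 to 6 are dark, 7 to 12 psilocybin-dark, 13 to 18 light and 19 to 24 psilocybin-light. The GEO sample labels name the opposite exposure, with the same drug, for each of the 24 libraries. Under those labels the light against dark difference of every member has the opposite sign, and the libraries called psilocybin-light here would be psilocybin-dark. What the library number stands for (order of dissection, extraction or loading) is not given in the sources used here.

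The members lie on 4 chromosomes in the GRCm39 annotation. Dpysl2 lies at chr14:67040313-67148522 on the minus strand, with 15 merged exons over 9425 exonic bases. Dpysl3 lies at chr18:43454049-43571532 on the minus strand and Dpysl4 at chr7:138665875-138682620 on the plus strand. Dpysl5, at chr5:30868908-30956719, and Crmp1, at chr5:37399284-37449481, are both on the plus strand of the same chromosome. Counts are for whole genes, so isoforms that start at different first exons were not separated.

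Total counts ran from 13552516 to 17906994 per library. Slc17a7, a vesicular glutamate transporter of excitatory neurons, was present in every library at a normalized count of 11160 or more. It was lowest in dark mice 1 (11160) and 6 (17870) and reached 30910 in psilocybin-light mouse 24. It was not set against other brain regions, so its presence does not tell cortex from neighbouring regions. Some libraries also carried markers of neighbouring regions. The sum of 10 cerebellar markers was 43030 in dark mouse 1, 86550 in dark mouse 6, 42660 in psilocybin-dark mouse 12 and 26990 in light mouse 18, against 2903 to 6251 in the other 20 libraries. The sum of 14 hippocampal markers was 12470 to 21350 in the dark mice and 7429 to 11530 in the other 18 mice, without overlap. Neurod1, one of the 14, was highest of its group in dark mouse 6 (4595), psilocybin-dark mouse 12 (2032) and light mouse 18 (1549). These libraries all had high cerebellar sums. Of the 12470 in dark mouse 6, 4595 came from Neurod1, so the lack of overlap rested on that gene. Both sums are given again beside the members they moved with.

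RefSeq promoter windows of 300 bases (250 before and 50 after a transcription start, GRCm38.p6) were available for Dpysl5 and Crmp1, 2 of the 5 members. They are shown because both genes were lower in every other group than in the dark group. The Dpysl5 window is chr5:30711314-30711613 and the Crmp1 window chr5:37241808-37242107, both on the plus strand and written 5′ to 3′, with motif matches in capitals.
Dpysl5: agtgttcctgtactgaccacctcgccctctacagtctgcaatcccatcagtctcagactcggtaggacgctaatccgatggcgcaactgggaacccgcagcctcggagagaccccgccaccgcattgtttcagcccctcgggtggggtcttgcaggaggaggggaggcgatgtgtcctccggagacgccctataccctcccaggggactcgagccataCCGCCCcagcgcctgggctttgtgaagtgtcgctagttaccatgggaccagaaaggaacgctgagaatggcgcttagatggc
Crmp1: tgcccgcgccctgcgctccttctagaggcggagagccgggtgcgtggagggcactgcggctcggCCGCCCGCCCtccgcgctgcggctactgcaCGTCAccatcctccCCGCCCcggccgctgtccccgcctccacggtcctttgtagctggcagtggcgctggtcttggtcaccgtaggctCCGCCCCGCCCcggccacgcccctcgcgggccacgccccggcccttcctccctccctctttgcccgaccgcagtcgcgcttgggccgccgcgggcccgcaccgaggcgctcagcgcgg
The motifs searched, on both strands, were the cAMP response element TGACGTCA, its shorter form TGACG, the EGR motif GCGTGGGCG and the GC box GGGCGG, of which the shorter form lies within the full element. Crmp1 held 5 matches to the GC box, some of them overlapping, and 1 to the shorter cAMP response form. Dpysl5 held 1 match to the GC box. A second Crmp1 window, at chr5:37245514-37245813, held 2 GC boxes. Of all 32851 promoter windows in the table, 35.7% held a GC box, 20.8% the shorter form, 1.79% the full cAMP response element and 0.612% the EGR motif. No window of these 2 genes held the full element or the EGR motif, which says only that these letters are not in these windows.

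The level of the 5 members was compared per length, as normalized count per kb of merged exon. In dark mice Crmp1 was highest at 524.5 ± 57.9 per kb (SD, n = 6), followed by Dpysl2 at 325.6 ± 32.4 (SD, n = 6). Dpysl3 followed at 176.8 ± 33.2 per kb (SD, n = 6), then Dpysl4 at 111.7 ± 24.8 and Dpysl5 at 98.1 ± 23.2 per kb (SD, n = 6 each). The ranges of Dpysl4 (91.3 to 159.8 per kb) and Dpysl5 (61.6 to 126.3 per kb) overlapped in dark mice, so their order did not exceed the spread between mice. In psilocybin-light mice Crmp1 remained the highest at 407.4 ± 22.6 per kb (SD, n = 6) and Dpysl2 stood at 159.6 ± 11.4 (SD, n = 6). There the ranges of Dpysl4 (103.4 to 115.6 per kb) and Dpysl3 (81.0 to 112.1 per kb) overlapped. The sum of the members was 1237 ± 98.1 per kb in dark, 985.2 ± 80.2 in light, 1035 ± 71.8 in psilocybin-dark and 831.4 ± 34.5 in psilocybin-light mice (SD, n = 6 each). Dpysl2 made up 26.4% of that sum in dark mice and 19.2% in psilocybin-light mice, and Crmp1 made up 42.4% and 49.0%.

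Dpysl2 (CRMP2), the most studied member, promotes tubulin assembly and axon growth. Values are counts scaled by TMM to the mean effective library size, called normalized counts. The 6 dark mice had 3221, 2936, 3153, 3404, 3176 and 2525 normalized counts in library order 1 to 6. The 6 psilocybin-dark mice (7 to 12) had 2772, 2740, 2668, 2574, 2710 and 2720, a narrow range. It lay inside that of the dark mice only through dark mouse 6 (2525), and every other dark mouse was above it. The 6 light mice (13 to 18) had 3121, 3007, 3326, 3579, 1633 and 1685, so 4 light mice were in or above the range of the dark mice and light mice 17 and 18 were far below it. The 6 psilocybin-light mice (19 to 24) had 1679, 1373, 1457, 1577, 1485 and 1456. Light mouse 17 lay within the range of the psilocybin-light mice and light mouse 18 just above it.

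Low Dpysl2 was therefore not limited to the psilocybin-light group in these data. Libraries 1 to 16 held 2525 to 3579 normalized counts and libraries 17 to 24 held 1373 to 1685, with no value between. The change of level lay inside the light group, between libraries 16 and 17, and not at the group boundary between libraries 18 and 19. The same was seen in the raw counts, which were 2311 to 3600 in libraries 1 to 16 and 1278 to 1677 in libraries 17 to 24. None of the other 4 members showed this pattern. For Crmp1, light mice 17 and 18 had 2930 and 2908 normalized counts against 2818 to 3162 in light mice 13 to 16. For Dpysl3 they had 725.1 and 788.9 against 739.9 to 823.8.

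**Figure D1:**
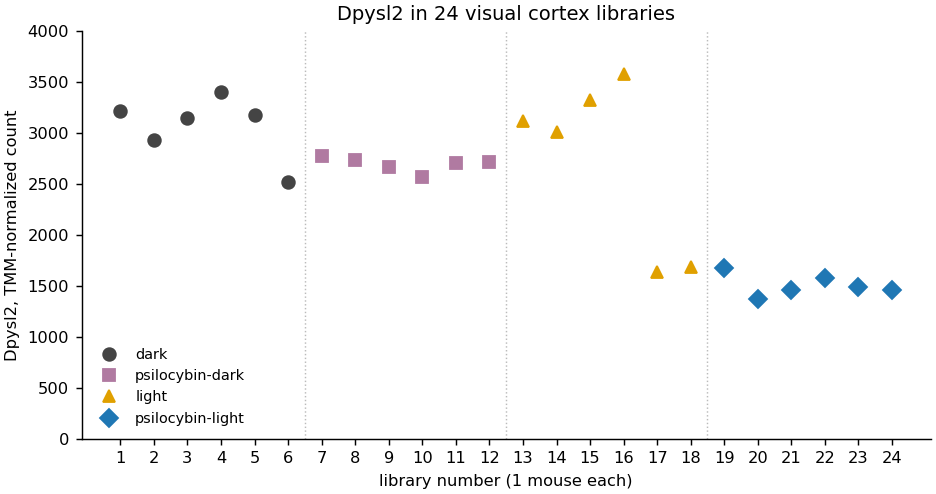
Normalized count of Dpysl2 (vertical axis, from 0) by library number (horizontal axis), with 1 point per mouse, a colour and shape per group and dotted lines at the group boundaries. Libraries 1 to 16 lie between 2525 and 3579 and libraries 17 to 24 between 1373 and 1685, so light mice 17 and 18 sit with the 6 psilocybin-light mice.

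Dpysl2 shared this pattern with a small set of genes. Of the 14464 genes tested, 110 (0.761%) had every value in libraries 17 to 24 below every value in libraries 1 to 16, and 5 genes had every value above. At the group boundary, 31 genes (0.214%) had every psilocybin-light value below the values of all 18 other libraries, and 10 had every value above. These counts describe the data and were chosen after the Dpysl2 values were seen. Among the 110 genes Dpysl2 had the largest difference in mean log2 normalized count, −0.94, followed by Rpsa-ps11 (−0.85), a pseudogene, and Nfib (−0.84), a transcription factor, both named after their values were seen. The median merged exon length was 10673 bases for the 110 genes and 6331 bases for the 14427 tested genes with an annotated length, and Dpysl2, at 9425 bases, lay between them. What set libraries 17 to 24 apart for these genes was not tested.

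The genes most like Dpysl2 were sought by Pearson correlation of log2 normalized counts over the 24 libraries, among 11110 genes with a mean normalized count of at least 100. Those with the highest r included Nucks1 (r = 0.949), Elavl1 (0.946), Tbl1xr1 (0.937), Zfp369 (0.936) and Lsm12 (0.935). Nucks1 encodes a nuclear phosphoprotein and Elavl1 the RNA-binding protein HuR. Tbl1xr1 is part of nuclear corepressor complexes. All 5 were among the 110 genes above. Nucks1 had 1651 normalized counts or more in libraries 1 to 16 and 1278 or fewer in libraries 17 to 24, and Elavl1 had 880.3 or more and 725.6 or fewer. The 24 points share depth, tissue content and the step itself, so these correlations are a description.

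Comparisons of Dpysl2 with light or psilocybin-light mice include libraries on the low side of the step, and psilocybin-dark against dark does not. Mean normalized counts were 3069 ± 306 in dark, 2697 ± 69.4 in psilocybin-dark, 2725 ± 849 in light and 1505 ± 108 in psilocybin-light mice (SD, n = 6 each). Dpysl2 did not pass the test between light and dark mice, with a log2 fold change of −0.17 (SE 0.14, edgeR adjusted p = 0.384, two-sided exact permutation p = 0.372). Without light mice 17 and 18, a choice made once the values were known, the log2 fold change was 0.09, and without light mice 13 to 16 it was −0.89. Between psilocybin-dark and dark mice it was −0.19 (SE 0.14, edgeR adjusted p = 0.369), and the exact permutation p of the single comparison was 0.0260. Between psilocybin-dark and light mice it was −0.01 (SE 0.14, edgeR adjusted p = 0.986). Without light mice 17 and 18 it was −0.27, and without light mice 13 to 16 it was 0.71. The SEs come from 1 spread shared by the 4 groups, so mice outside a comparison also set them. The light mice varied most (SD 849).

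In the comparisons that chose Dpysl2, the log2 fold change of psilocybin-light mice was −1.03 (SE 0.14) against dark, −0.84 (SE 0.14) against psilocybin-dark and −0.86 (SE 0.14) against light mice. All 6 psilocybin-light mice were below all dark and all psilocybin-dark mice, as were 7.56% and 3.8% of all genes tested, and they overlapped the light mice. The difference from light mice was −1.11 without light mice 17 and 18 and −0.13 without light mice 13 to 16. The interaction, the psilocybin-light level relative to the sum of the separate light and psilocybin differences, was −0.67 (SE 0.20). It was −0.93 without light mice 17 and 18 and 0.06 without light mice 13 to 16. These comparisons and the interaction all share the psilocybin-light mice, so they are not independent.

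The Dpysl2 locus overlaps Pnma2, a paraneoplastic antigen gene on the other strand, by 632 exonic bases. Pnma2 had 871.6 to 992.4 normalized counts in psilocybin-light mice, 944.1 and 894.4 in light mice 17 and 18 and 997.9 to 1038 in light mice 13 to 16. Its mean was 1299 ± 419 in dark mice (SD, n = 6). Gm5464, a noncoding gene that overlaps Dpysl2 by 176 exonic bases, had at most 5.37 normalized counts in any mouse. The strand setting of the counting was not given in the sources used here, so reads from overlapping opposite-strand exons cannot be assigned from these counts.

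The 4 other members were tested in every comparison. Dpysl3, Dpysl5 and Crmp1 were lower in each of the other groups than in the dark group, and Dpysl4 did not pass the test. In light against dark mice 3 of the 5 members passed, all lower, where 31.9% of the genes tested passed, 15.4% higher and 16.5% lower. In psilocybin-dark against dark mice 3 of 5 passed, all lower, where 24.7% passed, 11.9% higher and 12.8% lower. In psilocybin-light against dark mice 3 of the 4 members tested passed, all lower, where 38.4% passed, 17.4% higher and 21% lower. The median log2 fold change of the 14464 genes was −0.010, −0.017 and −0.021 in these comparisons.

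**Figure D2:**
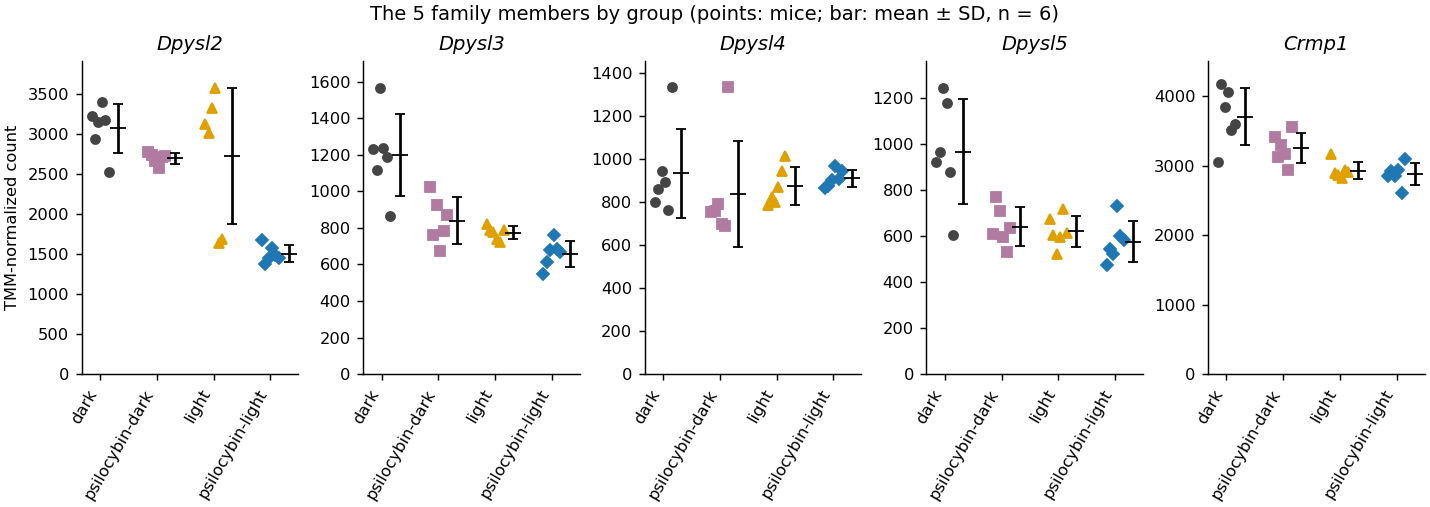
Normalized counts of the 5 members (vertical axes, each from 0) in the 4 groups, with 1 point per mouse and the mean ± SD (n = 6) to the right of the points. The dark mice have the highest mean for all 5 members, but for Dpysl4 the psilocybin-light median (905.5) is above the dark median (878.6). Dpysl2 splits the light mice, and Dpysl4 has 1 high dark and 1 high psilocybin-dark mouse.

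Dpysl3 (CRMP4) encodes a member known from growing axons and neural progenitors. It had 1230, 1115, 1565, 1236, 1190 and 867.2 normalized counts in dark mice 1 to 6. It had 823.8, 787.0, 780.1, 739.9, 725.1 and 788.9 in light mice 13 to 18, all below the lowest dark mouse, a separation found in the same direction for 4.41% of all genes. Its log2 fold change in light against dark mice was −0.63 (SE 0.11, edgeR adjusted p = 0.000133). The exact permutation p was 0.00216, the smallest that 6 mice against 6 can give.

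In psilocybin-dark mice 7 to 12 Dpysl3 had 1026, 760.0, 926.1, 672.2, 784.5 and 870.8 normalized counts, and the ranges overlapped because dark mouse 6 was lower than 3 of them. Its log2 fold change against dark mice was −0.52 (SE 0.11, edgeR adjusted p = 0.00137). In psilocybin-light mice 19 to 24 it had 549.7, 614.5, 679.6, 761.2, 682.3 and 666.5, again all below the dark mice, as for 7.56% of all genes. The log2 fold change against dark mice was −0.86 (SE 0.11, edgeR adjusted p = 3.16e-06). Psilocybin-light mice were also on average lower than psilocybin-dark mice by a log2 fold change of −0.35 (SE 0.11), which missed the threshold (edgeR adjusted p = 0.0552) and passed it with DESeq2 (adjusted p = 0.0318).

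Dpysl5 (CRMP5) encodes the most divergent member, which is known to counteract CRMP2 in neurite outgrowth. It had 919.6, 965.7, 1243, 1175, 879.2 and 605.9 normalized counts in dark mice 1 to 6. In the light mice it ran from 521.4 to 714.8 with a median of 607.9, so that dark mouse 6 alone overlapped the light mice. The log2 fold change in light against dark mice was −0.64 (SE 0.13, edgeR adjusted p = 0.000940). In psilocybin-dark mice the counts ran from 530.9 to 767.1 (median 621.6), with a log2 fold change against dark mice of −0.59 (SE 0.13, edgeR adjusted p = 0.00255). In psilocybin-light mice they ran from 472.7 to 729.5 (median 562.5), with a log2 fold change of −0.75 (SE 0.13, edgeR adjusted p = 0.000149).

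Crmp1, the member with the highest level per length, encodes a Semaphorin 3A signal mediator. It had 3050, 4170, 3849, 4054, 3514 and 3592 normalized counts in dark mice 1 to 6. It ran from 2818 to 3162 in light mice (median 2899), and dark mouse 1 was the sole dark mouse within that range. The log2 fold change in light against dark mice was −0.34 (SE 0.06, edgeR adjusted p = 0.000259). In psilocybin-dark mice it ran from 2941 to 3548 (median 3233), with a log2 fold change against dark mice of −0.19 (SE 0.06, edgeR adjusted p = 0.0281). This call was lost when dark mouse 2, 3 or 4 or psilocybin-dark mouse 8, 10 or 11 was left out, with adjusted p values of 0.0524 to 0.0766. It was also lost without the filter on low counts (edgeR adjusted p = 0.06955), in the fit of these groups alone (0.09895) and without dark libraries 2 to 5 (0.7707). In psilocybin-light mice it ran from 2602 to 3090 (median 2890), with a log2 fold change against dark mice of −0.36 (SE 0.06, edgeR adjusted p = 8.64e-05).

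Dpysl4 (CRMP3), a member expressed in fewer neurons and abundant in cerebellum, had 763.9 to 1337 normalized counts in dark mice with a median of 878.6. It ran from 787.4 to 1013 in light mice (median 847.3), from 687.1 to 1334 in psilocybin-dark mice (median 756.7) and from 865.2 to 967.2 in psilocybin-light mice (median 905.5). Its log2 fold change was −0.10 (SE 0.14, edgeR adjusted p = 0.632) in light against dark mice and −0.16 (SE 0.14, edgeR adjusted p = 0.444) in psilocybin-dark against dark mice. It was −0.04 (SE 0.14, edgeR adjusted p = 0.862) in psilocybin-light against dark mice.

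The highest Dpysl4 values were those of dark mouse 6 (1337) and psilocybin-dark mouse 12 (1334), 2 of the 4 libraries with high cerebellar markers, followed by light mouse 18 (1013), also one of them. Dark mouse 1, the fourth, had 800.7. Gabra6, a receptor subunit of cerebellar granule cells, had 7131, 3007, 2170 and 3068 normalized counts in these 4 libraries and at most 105.7 in any other, and was at 0 in 7 libraries. Without these 4 libraries, also chosen with the values known, Dpysl4 passed the test in psilocybin-dark against dark mice at a log2 fold change of −0.24 (edgeR adjusted p = 0.00566). It then also passed in psilocybin-light against psilocybin-dark mice at 0.32 (adjusted p = 0.00108), in psilocybin-dark against light mice at −0.20 (adjusted p = 0.0498) and in the interaction at 0.35 (adjusted p = 0.00473). Over all genes, 5416, 2434, 852 and 3810 of 14135 passed in this fit, in the same order. The main fit had 3575, 923, 66 and 1266 of 14464. For Dpysl4, leaving out psilocybin-dark mouse 12 alone gave −0.34 (edgeR adjusted p = 0.0193) in psilocybin-dark against dark mice. The light and psilocybin-light differences of Dpysl4 from dark mice did not pass the test in either case.

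**Figure D3:**
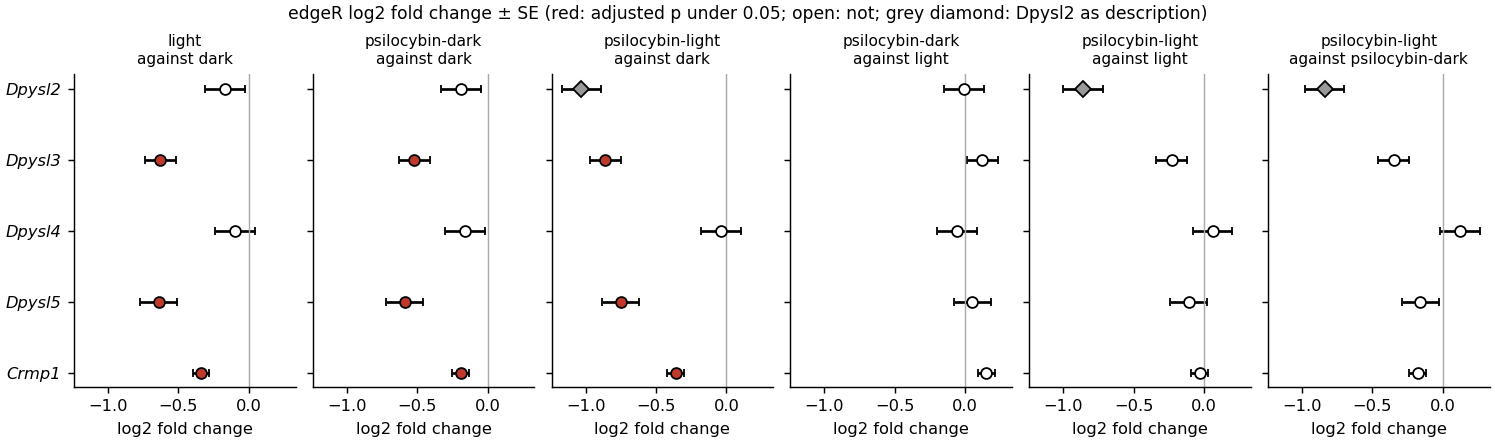
Log2 fold change ± SE from edgeR (horizontal axes) for the 5 members in the 6 comparisons of 2 groups, with calls at an adjusted p under 0.05 in red, other tested values open, and Dpysl2 as a grey diamond where its level chose it. Dpysl3, Dpysl5 and Crmp1 are red in the 3 comparisons with dark mice, and no member is red in the other 3.

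Among the 3 groups other than the dark group, no tested member passed with edgeR. Exact permutation p values, not adjusted over genes, were 0.00866 (Crmp1) in psilocybin-dark against light and 0.00649 (Dpysl3) in psilocybin-light against light mice. In psilocybin-light against psilocybin-dark mice they were 0.00433 (Crmp1) and 0.0152 (Dpysl3). All other exact permutation p values of these 3 comparisons were 0.195 or more. In psilocybin-dark against light mice none of the 5 members passed with edgeR, where 0.456% of genes did (66, and 3 to 346 with each library left out, lowest without light mouse 15 and highest without dark mouse 6), and none with DESeq2, which called 405 genes. The smallest unadjusted p was that of Crmp1, 0.0239, at a log2 fold change of 0.15 (edgeR adjusted p = 0.244), and it was the 1 member under 0.05. In psilocybin-light against light mice none of the 4 tested passed with edgeR or DESeq2, where 0.608% of genes did with edgeR (88, and 9 to 155 with each library left out, lowest without psilocybin-light mouse 19 and highest without light mouse 17), and 1 had an unadjusted p under 0.05 (Dpysl3, log2 fold change −0.23). In psilocybin-light against psilocybin-dark mice none of the 4 passed with edgeR, where 6.38% of genes did (2.6% higher and 3.78% lower), 2 had an unadjusted p under 0.05 (Dpysl3 and Crmp1), and DESeq2 called 1. In the interaction none of the 4 passed with either tool, where 8.75% of genes did with edgeR, and 1 had an unadjusted p under 0.05 (Dpysl5, 0.48, SE 0.19, adjusted p = 0.112).

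Between groups, the lower Dpysl3, Dpysl5 and Crmp1 moved with the hippocampal markers. Of 12 hippocampal markers tested, 6 were lower in light than in dark mice and none was higher, where 16.5% of all genes were lower and 15.4% higher. The median log2 fold change of the 12 was −1.11. Of the 6 lower markers, Fibcd1, a CA1 marker, fell by 3.51 and Cpne7 by 2.1 on the log2 scale. In psilocybin-dark mice 5 of 12 were lower than in dark mice (median −1.08), and in psilocybin-light mice 9 of 12 (median −1.42). Of all genes, 12.8% and 21% were lower in these comparisons. Fibcd1 had 119.7 to 305.5 normalized counts in the 18 mice of the other groups, and 321.7 to 4785 in the mice of the dark group. Markers of cortical glutamatergic neurons moved the other way, with 5 of 10 higher and none lower in light than in dark mice (median 0.92), where 15.4% of all genes were higher. Within the dark group, mouse 6 had the lowest hippocampal sum, 12470, and the lowest Dpysl3 (867.2) and Dpysl5 (605.9), and also the highest cerebellar sum, 86550. Dark mouse 1, next lowest at 13810, had Dpysl3 at 1230, in the middle of the dark mice, and the lowest dark Crmp1, 3050, which in mouse 6 was 3592. The order within the dark mice was therefore not the same for the 3 genes.

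With the mean hippocampal marker level as a covariate in the fit, none of the 5 members passed in light or psilocybin-dark against dark mice, and none of the 4 in psilocybin-light against dark mice. The log2 fold changes in light against dark mice were then −0.19 for Dpysl3 (edgeR adjusted p = 0.576), −0.12 for Dpysl5 (0.830) and −0.30 for Crmp1 (0.127). Without dark libraries 2 to 5, Dpysl5 no longer passed in light against dark mice (log2 fold change −0.30, edgeR adjusted p = 0.1304), and neither Dpysl3 (−0.32, adjusted p = 0.06278) nor Dpysl5 (−0.25, adjusted p = 0.208) did in psilocybin-dark against dark mice. The covariate also lowered the calls over all genes, to 370 in light against dark and to 0 in psilocybin-dark against dark mice. The hippocampal sums of the dark mice were above those of the other groups, for dark mouse 6 only with Neurod1 counted. Tissue content and treatment therefore cannot be told apart for these 3 genes. Fewer cells of a type and less RNA per cell likewise cannot be told apart in tissue samples. The log2 fold change of Dpysl2 in psilocybin-light against dark mice was −1.10 in this fit, a description without a test. The covariate largely follows the dark group, so this value does not show whether tissue content has a part in it. The psilocybin-light libraries also all lie on the low side of the change of level inside the light group.

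**Figure D4:**
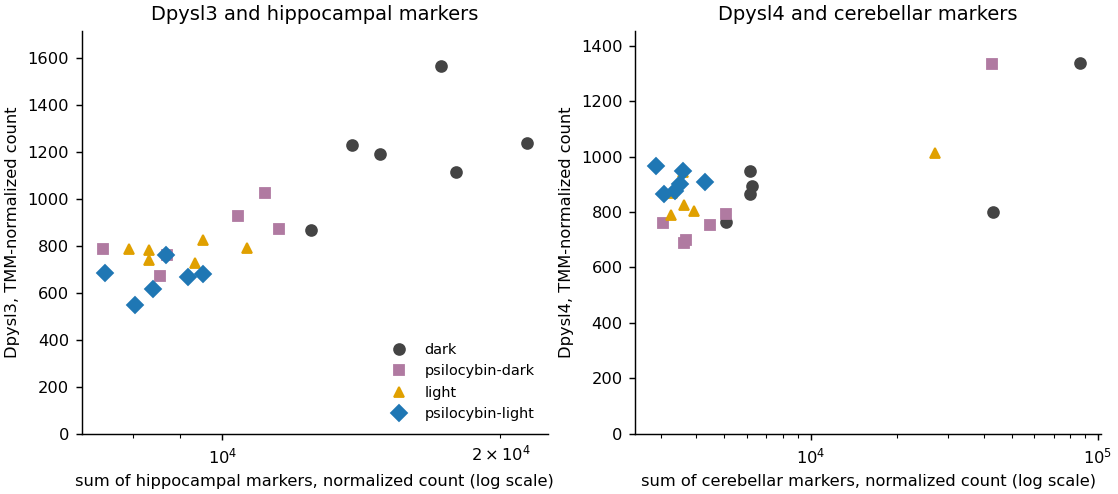
Left, Dpysl3 against the sum of 14 hippocampal markers, and right, Dpysl4 against the sum of 10 cerebellar markers, as normalized counts per mouse with marker sums on a log axis. Dark mice have the highest hippocampal sums (12470 to 21350) and most of the highest Dpysl3 values. The 2 highest Dpysl4 values, 1337 and 1334, belong to libraries with high cerebellar sums.

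Astrocyte markers moved with Dpysl2 in part. The sum of 10 astrocyte markers was 62950 to 72310 in psilocybin-light mice, 77350 to 86470 in dark and 79190 to 92440 in psilocybin-dark mice, and 71160 to 85700 in light mice. Light mouse 17 was the lowest of the light mice at 71160, and light mouse 18, one of the libraries with high cerebellar markers, had 79650. Of the 10 markers, 2 were lower in psilocybin-light than in psilocybin-dark mice and none was higher (median log2 fold change −0.16). Of all genes, 3.78% were lower and 2.6% higher in this comparison. The 2 markers were the glutamate transporter Slc1a2 at −0.51 and the gap junction protein Gja1 at −0.48, and none of the 10 was at 0. The lowest Slc1a2 of the light mice, 30370 normalized counts, was that of light mouse 18, inside the range of the psilocybin-light mice (29820 to 34230), and the lowest Gja1, 2644, that of light mouse 17. Slc1a2 ranged from 24390 to 45760 within the dark mice, with the lowest value in mouse 1. The part of astrocyte content in the Dpysl2 values was not tested.

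The sum of immature neuron markers, in which Dpysl3 and Dpysl5 transcripts are known to be abundant, ran from 10700 to 18910 in dark, 10530 to 13030 in light, 10330 to 13880 in psilocybin-dark and 9918 to 11090 in psilocybin-light mice, with overlap between all groups. The highest dark values, 18910 and 15500, were those of mice 6 and 1, both with high cerebellar markers. Of 9 immature neuron markers tested, none passed in psilocybin-dark against dark mice with edgeR (4 had an unadjusted p under 0.05, and DESeq2 called 1, lower), where Dpysl3 and Dpysl5 were lower. In light mice 2 were lower and 1 higher than in dark mice, and 6 were lower and 1 higher in psilocybin-light than in dark mice. Of all genes, 24.7% passed in psilocybin-dark, 31.9% in light and 38.4% in psilocybin-light against dark mice. Oligodendrocyte markers, of interest because Dpysl2 and Dpysl5 are also expressed in that lineage, ranged from 20880 to 140300 within the dark mice alone.

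The members were also compared with each other over the 24 libraries, as a description of log2 normalized counts. Dpysl3 and Dpysl5 were the most alike (Pearson r = 0.86), followed by Dpysl3 and Crmp1 (0.75) and Dpysl5 and Crmp1 (0.72). Dpysl2 had r = 0.65 with Dpysl3, 0.50 with Crmp1 and 0.46 with Dpysl5. Dpysl4 stood apart, with r between −0.26 and 0.19 to the others. The genes most like Dpysl3 were Fam210b (0.933) and Rab3c (0.926), those most like Dpysl5 were Cdk18 (0.932) and Crym (0.914), those most like Crmp1 were Usp46 (0.942) and Ap2a2 (0.940), and those most like Dpysl4 were Ccdc120 (0.850) and Odf2 (0.831).

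Crmp1 shares 461 exonic bases with Evc, a ciliary gene on the other strand, which had 120.5 ± 7.36 normalized counts in dark and 174.6 ± 27.1 in light mice (SD, n = 6 each), opposite in direction to Crmp1. Dpysl5 shares 314 exonic bases with Gm15461, which had no count in any library. Dpysl3 shares 30 exonic bases with Gm58555, a noncoding gene.

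Upstream of the family, 25 genes of semaphorin and plexin signalling were tested. The counts of this and the following lists are to be read against the shares of all genes tested that passed, which were 31.9% in light, 24.7% in psilocybin-dark and 38.4% in psilocybin-light against dark mice and 6.38% in psilocybin-light against psilocybin-dark mice, and nothing particular to a list is drawn from them. In light against dark mice 5 were higher and 8 lower (median log2 fold change −0.02). Nrp2, a neuropilin coreceptor for class 3 semaphorins, had a log2 fold change of −1.60 (edgeR adjusted p = 8.64e-06), and Sema3f, its ligand, 1.21 (adjusted p = 0.00046). Rnd1, a GTPase that binds plexins, rose by 1.00 (adjusted p = 5.73e-06) and Sema3a, the ligand that gave the family its name, by 0.98 (adjusted p = 0.00163). In psilocybin-dark against dark mice 4 were higher and 5 lower (median 0.05), with Nrp2 at −1.72, Sema3a at 1.26, Mical2, a plexin-linked oxidoreductase, at 0.99 and Sema3f at 0.98. In psilocybin-light against dark mice 5 were higher and 10 lower (median −0.05), with Nrp2 at −1.82 and Sema3f at 1.53. In psilocybin-light against psilocybin-dark mice 2 of 25 were lower, Chl1 at −0.34 and Mical3 at −0.26, where Chl1 encodes a cell adhesion molecule that binds neuropilin. The interaction passed for 5 of 25, among them Nrp2 at 1.49 and Sema3a at −1.33, where 8.75% of all genes tested passed.

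The 22 kinases, phosphatases and other modifiers of CRMPs came next in the pathway. In light against dark mice 7 were higher and 2 lower (median log2 fold change 0.10), with Cdk5r2, an activator of Cdk5, at 0.86 (edgeR adjusted p = 0.000111) and Ppp3ca, the catalytic subunit of calcineurin, at 0.44 (adjusted p = 0.000888). In psilocybin-dark against dark mice 6 were higher and 1 lower (median 0.05), again with Cdk5r2 at 0.84 and Ppp3ca at 0.41. In psilocybin-light against dark mice 7 were higher and 4 lower (median 0.10). In psilocybin-light against psilocybin-dark mice 1 was higher and 3 lower, with Gsk3b at −0.50 (adjusted p = 0.00118), Dyrk1a at −0.32 (adjusted p = 0.00164) and Rock1 at −0.27 (adjusted p = 0.0302).

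Gsk3b and Dyrk1a encode kinases that phosphorylate CRMP2, and both were among the 110 genes with the Dpysl2 pattern. Gsk3b had 4121, 3735, 3614 and 3852 normalized counts in light mice 13 to 16, 2890 and 2711 in light mice 17 and 18, and 2695 to 3197 in the 6 psilocybin-light mice. Light mice 17 and 18 were thus again at the level of the psilocybin-light mice. Dyrk1a had 1406 or more in libraries 1 to 16 and 1268 or fewer in libraries 17 to 24. Nf1, which encodes the CRMP2 partner neurofibromin, had 1378 or more and 1308 or fewer. For these 3 genes, as for Dpysl2, the low level was not limited to the psilocybin-light group but included vehicle light mice 17 and 18. What set libraries 17 to 24 apart was not tested.

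Of 22 binding partners of CRMPs, 3 were higher and 5 lower in light than in dark mice (median log2 fold change −0.06). Sytl1, an effector of Rab27 in vesicle transport, had the largest difference at 1.83 (edgeR adjusted p = 5.81e-06), from a mean normalized count of 26.4 over all mice. Scn9a, a sodium channel, had −1.52 (adjusted p = 0.000554), and Numb, an endocytic adaptor bound by CRMP2, 0.65 (adjusted p = 7.3e-06). In psilocybin-dark against dark mice 4 were higher and 5 lower (median 0.05), with Scn9a at −1.63 and Sytl1 at 1.49. In psilocybin-light against dark mice 4 were higher and 7 lower (median −0.06), with Sytl1 at 2.20 and Scn9a at −1.72. In psilocybin-light against psilocybin-dark mice 1 was higher, Sytl1 at 0.71, and 2 were lower, Nf1 at −0.44 and Actb at −0.37.

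Among 25 microtubule and growth cone proteins, 3 were higher and 8 lower in light than in dark mice (median log2 fold change −0.11). Gap43, a growth cone phosphoprotein, had −0.59 (edgeR adjusted p = 0.000133), Tubb2b, a tubulin of young neurons, −0.58 (adjusted p = 0.000385) and Map1b, a microtubule-associated protein of growing axons, −0.53 (adjusted p = 9.19e-05). Stmn1, a tubulin-sequestering protein, had 0.53 (adjusted p = 0.00233). In psilocybin-dark against dark mice 2 were higher and 7 lower (median −0.06), with Tubb2b at −0.57, Dclk1, a microtubule-binding kinase, at 0.54 and Gap43 at −0.51. In psilocybin-light against dark mice 4 were higher and 10 lower (median −0.12), with Tubb2b at −0.63 and Gap43 at −0.62.

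CRMPs are related to the enzymes of pyrimidine breakdown, and of a list of 5 such enzymes and relatives 2, Dpyd and Cad, passed the filter on low counts. Dpyd, which starts pyrimidine breakdown, was lower than in dark mice by a log2 fold change of −1.71 in light, −1.63 in psilocybin-dark and −1.76 in psilocybin-light mice (edgeR adjusted p = 0.000272, 0.000653 and 0.000146). Cad, a pyrimidine synthesis enzyme with a dihydroorotase domain, had −0.26, −0.30 and −0.28 in the same comparisons (adjusted p = 0.0280, 0.0178 and 0.0176). Dpys, the dihydropyrimidinase itself, averaged 5.05 normalized counts and was not tested. The calls of these 5 lists against dark mice share the dark mice and their high hippocampal sums, and the part of tissue content in them was not tested gene by gene.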

How the data were processed

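Libraries were made by the authors from polyadenylated RNA of visual cortex. Per the methods, trimming was done by the authors with cutadapt, alignment to GRCm39 with STAR and counting per Ensembl gene with htseq-count, without a stated strand setting or version. The submitters' processing notes name mm10 as the build. The deposited values are raw counts, not normalized, with 13552516 to 17906994 counts per library.

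Counts of 24 libraries were fitted in R 4.3.3 with edgeR 4.0.16 (TMM, genes with 30 counts or more in 1 or more libraries, 1 term per group, quasi-likelihood test), with a common biological coefficient of variation of 0.182. P-values were two-sided and adjusted over 14464 genes by the Benjamini-Hochberg procedure, with a threshold of 0.05. Replicates are separate mice. Exact permutation tests compared mean log2 values (prior count 2) over 924 assignments. Gene names, exons and lengths came from GENCODE vM39, and promoter windows from RefSeq (GRCm38.p6). The fit was tested on simulated data. Plots were drawn with matplotlib 3.10.9.

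The members, lists and alternatives were chosen with earlier results of these data known. Named genes were the members, up to 4 called genes per list and comparison (largest absolute log2 fold change first), and the 6 genes most correlated with Dpysl2 and 2 with each other member, of which 1 is not reported here. Other genes were named after their values were seen. Alternatives were DESeq2 1.42.0 with the authors' settings, its size factors, 2 other filters, the compared groups alone, the labels' exposure, a hippocampal covariate and left-out libraries.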

Additional observations from a re-analysis of the deposited data

Results flagged for a closer look

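Within groups of 6 mice, the highest and lowest values were screened by Dixon's ratio at its 95% critical value, for which chance flags about 1 in 20 groups. Of the 20 combinations of member and group, 3 had 1 mouse far from the other 5. Dpysl4 was high in dark mouse 6, with 1337 normalized counts, and in psilocybin-dark mouse 12, with 1334. Both libraries had high sums of cerebellar markers, 86550 and 42660. Crmp1 was highest in light mouse 13, with 3162 normalized counts, against 2818 to 2930 in the other 5 light mice.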

How the results depend on the processing

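Of the recomputed log2 fold changes of members, 1124 kept direction and call, 44 reversed, 26 lost and 25 gained a call, and 6 untested Dpysl2 values moved by more than the spread between mice. Under the sample labels dark and light change places within each drug, so each comparison becomes another comparison or its reverse. The shifts and reversals under the labels follow from this exchange. The cause of the other shifts was not tested. With the exposure of the sample labels, light against dark became 0.17 for Dpysl2, 0.63 for Dpysl3, 0.10 for Dpysl4, 0.64 for Dpysl5 and 0.34 for Crmp1. Psilocybin-light against psilocybin-dark became 0.84, 0.35, −0.12, 0.16 and 0.18, and the interaction 0.67, −0.28, −0.22, −0.48 and −0.16, in the same order. Psilocybin-dark against light became −0.86 for Dpysl3, −0.75 for Dpysl5 and −0.36 for Crmp1, and psilocybin-light against dark 0.12 for Dpysl3, 0.05 for Dpysl5 and 0.15 for Crmp1. For Dpysl4, psilocybin-dark against dark became 0.06 and psilocybin-light against light −0.16. The tested members that passed became 0 of 4 in psilocybin-dark against dark, 3 in psilocybin-dark against light, 0 in psilocybin-light against dark and 3 in psilocybin-light against light. Of 14464 genes, 88, 5551, 66 and 3575 passed in these comparisons, in the same order.

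With the hippocampal covariate, members that passed fell to 0 in each comparison with dark mice, Dpysl4 became 0.02 in light and 0.11 in psilocybin-light against dark mice, and the Dpysl3 interaction −0.09. Without dark libraries 2 to 5, members that passed became 1 in light and 0 in psilocybin-dark against dark mice. In psilocybin-light against psilocybin-dark mice they became 2. Of 14350 genes, 5915 then passed in psilocybin-dark against dark and 1529 in psilocybin-light against psilocybin-dark mice. Without dark libraries 1 and 6, 2 members passed in psilocybin-light against psilocybin-dark mice and 2 in the interaction. Of 14281 genes, 1791 and 3078 passed there. Dpysl4 was then 0.02 in light and 0.08 in psilocybin-light against dark mice. In psilocybin-light against psilocybin-dark mice DESeq2 called 1 member and the fit of these groups alone 2, where 1688 of 13974 genes passed.

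The alternatives that follow were chosen after the data were seen. Without libraries 1, 6, 12 and 18, 1 member passed in psilocybin-dark against light mice and 2 in psilocybin-light against psilocybin-dark mice. In the interaction 3 passed. Over all genes, 852, 2434 and 3810 of 14135 then passed, in that order. The main fit had 66, 923 and 1266 of 14464. Dpysl4 became 0.08 in psilocybin-light against dark mice in the fit without these libraries. Without light libraries 17 and 18, Dpysl2 became 0.09 in light against dark and Dpysl4 0.03 in psilocybin-dark against light mice. Without light libraries 13 to 16, Dpysl2 became 0.71 in psilocybin-dark against light mice and 0.06 in the interaction, Dpysl4 0.07 in light against dark and −0.09 in psilocybin-light against light mice, and Dpysl5 −0.05 in psilocybin-dark against light mice.

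With each library left out in turn, Dpysl4 ranged from −0.15 to 0.04 in light and from −0.09 to 0.10 in psilocybin-light against dark mice, above 0 only without dark mouse 6. Dpysl2 ranged from −0.12 to 0.08 and Dpysl5 from −0.01 to 0.10 in psilocybin-dark against light mice, and Crmp1 from −0.04 to 0.00 in psilocybin-light against light mice. Members that passed ranged from 0 to 1 in psilocybin-light against psilocybin-dark mice (Dpysl3, without dark mouse 3 or 6, psilocybin-dark mouse 10 or psilocybin-light mouse 22) and from 0 to 1 in the interaction (Dpysl5, without dark mouse 6). Over all genes, calls then ranged from 3 to 346 in psilocybin-dark and from 9 to 155 in psilocybin-light against light, from 585 to 1249 in psilocybin-light against psilocybin-dark and from 834 to 2092 in the interaction. Over all genes, the other alternatives gave 370 to 6228 calls in light against dark (main 4611), 0 to 5915 in psilocybin-dark against dark (3575), 0 to 5551 in psilocybin-dark against light (66), 66 to 6816 in psilocybin-light against dark (5551), 0 to 3575 in psilocybin-light against light (88), 463 to 2434 in psilocybin-light against psilocybin-dark (923) and 0 to 4016 in the interaction (1266). No paired analysis was possible because the libraries carry numbers unique to each mouse. The group of 6 mice and the shared dark mice limit every comparison, and counts of whole genes cannot show isoforms, strands or cell types.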
